A study of Sus scrofa with 10 samples.

Results

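The liver makes bile acids from cholesterol, and 9 genes of that route were looked for by name in a table of liver expression from 10 male pigs' samples: CYP7A1, CYP8B1, CYP27A1, CYP7B1, AKR1D1, HSD3B7, BAAT, ABCB11 and NR0B2. Of these 9 genes, 6 were matched to a row of the table, which holds 25009 Ensembl gene identifiers. CYP8B1, which steers the route towards cholic acid, HSD3B7, which alters the steroid ring, and BAAT, which joins bile acids to an amino acid, were not matched and are not analysed here. By phenotype, 5 livers had high growth and fatness and 5 had low, and these groups are called high and low. All came from males given the age 175, with no unit, and neither group carries a named treatment, allele or breed. Tissue was frozen at slaughter. Separate animals are not stated, and the spread behind each p-value is that between these samples, part of which may be technical.

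Bile acid synthesis has a classical pathway, begun by CYP7A1 at the step that sets its rate, and an alternative pathway, begun by CYP27A1 and carried on by CYP7B1. AKR1D1 then reduces the ring of intermediates from either pathway, and the bile salt export pump ABCB11 moves the finished acids into bile. Bile acids that return to the hepatocyte bind the receptor NR1H4 (FXR), which in human and rodent liver induces ABCB11 and NR0B2 (SHP), and NR0B2 represses CYP7A1. A second signal, the gut hormone FGF19, reaches the hepatocyte through FGFR4 and KLB and also lowers CYP7A1. Inflammation lowers many of these transcripts in human and rodent liver.

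Values are RPKM, reads scaled to gene length and library size as deposited. Levels can be set side by side between genes only as far as each gene model is complete, which was not checked. The RPKM summed to between 539327 and 567220 per library. The relative depth read from the smallest values spanned a 1.41-fold range, a rough estimate that rests on as few as 4 genes in a library. The absolute depth is unknown. The hepatocyte markers had the levels of liver tissue, with ALB between 22922 and 52025 RPKM. Transcripts of the nervous system stood out in high replicates 1 and 5, where the listed genes had a mean log2(RPKM + 1) of 0.866 and 0.973, against 0.00571 to 0.107 in the other 8 libraries. High replicates 1 and 3 and low replicate 2 had the highest levels of the positive acute phase list, the plasma proteins that liver makes in inflammation, with 9.55, 9.67 and 9.77 (mean log2(RPKM + 1) of 10 genes). Low replicate 3 was close behind at 9.54 and low replicate 4 had the lowest at 7.99.

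The members differed widely in level. AKR1D1 was highest with 147 ± 40.0 RPKM (SD, n = 10), followed by NR0B2 with 39.7 ± 13.5, ABCB11 with 25.3 ± 13.7, CYP7B1 with 12.2 ± 4.71, CYP7A1 with 2.51 ± 3.80 and CYP27A1 with 0.493 ± 0.260 RPKM. The place of CYP27A1 in this order is uncertain, since it was not checked whether its gene model in the older annotation is complete. The order of AKR1D1 over NR0B2 and of CYP7B1 over CYP7A1 held in 10 of 10 libraries. NR0B2 lay above ABCB11 in 8 of 10, ABCB11 above CYP7B1 in 9 of 10, and CYP7A1 above CYP27A1 in 6 of 10, so the order of those neighbours was not the same in every library. CYP7A1, which opens the classical pathway, had fewer RPKM than CYP7B1 of the alternative pathway in every library. The ratio of CYP7A1 to CYP7B1 had a median of 0.0448 and ran from 0.00331 to 0.877.

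CYP7A1 (ENSSSCG00000006238) had 0.03, 3.02, 0.03, 0.86 and 0.40 RPKM in high replicates 1 to 5, against 8.44, 0.16, 0.34, 10.49 and 1.29 RPKM in low replicates 1 to 5. Low replicates 4 and 1 stood above all other libraries, high replicate 2 came next, and the groups overlapped. The mean was 0.868 ± 1.25 RPKM in high and 4.14 ± 4.93 RPKM in low (SD, n = 5 each). The gene thus reached the mean of 1 RPKM asked of tested genes only through its values in low. The log2 fold change of high over low was -1.02 (SE 0.67, 95% interval -2.50 to 0.45) on the log2(RPKM + 1) scale, with an adjusted p of 0.961 in limma, and the exact permutation p, over every assignment of libraries to groups, was 0.230. The difference was -1.83 with a pseudocount of 0.1, -0.74 without high replicates 1 and 5, -0.57 without low replicate 4 and -0.64 without low replicate 1, and it passed no threshold in those fits. Most values are given to 2 decimals, so the 0.03 RPKM of high replicates 1 and 3 carries a large rounding error. In bulk tissue fewer hepatocytes and less of a transcript per hepatocyte cannot be told apart.

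CYP27A1 (ENSSSCG00000016199), the mitochondrial hydroxylase that opens the alternative pathway and oxidises the side chain, had 0.25, 0.32, 0.28, 0.32 and 0.34 RPKM in high replicates 1 to 5, against 0.87, 0.29, 0.68, 0.90 and 0.68 RPKM in low replicates 1 to 5. Of the 5 low libraries 4 lay above every high library, and low replicate 2 lay among the high ones. The mean was 0.302 ± 0.0363 RPKM in high and 0.684 ± 0.243 RPKM in low (SD, n = 5 each). With a mean under 1 RPKM the gene was outside the fit across genes, and an exact two-sided permutation test of this gene alone gave a difference of -0.36 in mean log2(RPKM + 1), high minus low, with p = 0.0317, unadjusted. In a limma fit with no filter on low values, over 18768 genes, its adjusted p was 0.929 and it did not pass. Without high replicates 1 and 5, the libraries with nervous system transcripts, the exact p was 0.0893, with a difference of -0.35. With 1 library left out in turn the exact p ran from 0.0079 to 0.0397. The exact test was run for each of the 6 members, and CYP27A1 had the smallest p, with no adjustment for this. In the authors' deposited table CYP27A1 had a fold of 2.16 and a p of 0.01, where a positive fold went with the higher mean in low in 96.7% of the tested genes. The authors' deposited table gave CYP7A1 a fold of 4.63 and a p of 0.19, and gave the other members folds between -1.2 and 1.07 and p of at least 0.39.

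CYP7B1 (ENSSSCG00000022092), the oxysterol hydroxylase of the alternative pathway, had 9.05, 14.54, 6.41, 15.74 and 20.53 RPKM in high replicates 1 to 5, against 17.43, 6.91, 9.74, 11.96 and 9.48 RPKM in low replicates 1 to 5. High replicate 5 was highest, and high replicate 3 and low replicate 2 were lowest. Its log2 fold change was 0.19 (SE 0.30, 95% interval -0.46 to 0.85), with a range of 0.021 without high replicate 5 to 0.41 without high replicate 3. AKR1D1 (ENSSSCG00000016519), the ring reductase, had 128, 183, 104, 203 and 170 RPKM in high replicates 1 to 5, against 176, 79.2, 116, 174 and 139 RPKM in low replicates 1 to 5. The groups overlapped, with the highest value in high replicate 4 and the lowest in low replicate 2. Its log2 fold change was 0.22 (SE 0.25, 95% interval -0.33 to 0.77), with a range of 0.040 without low replicate 2 to 0.36 without high replicate 3, and neither enzyme passed limma (adjusted p = 0.974 for CYP7B1 and 0.968 for AKR1D1).

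ABCB11 (ENSSSCG00000015926), the export pump, had 11.93, 33.84, 4.30, 30.05 and 43.37 RPKM in high replicates 1 to 5, against 36.64, 10.04, 25.43, 40.50 and 17.34 RPKM in low replicates 1 to 5. The values spanned a 10.1-fold range, with the highest and the lowest library both in high, replicates 5 and 3. Its log2 fold change was -0.27 (SE 0.57, 95% interval -1.52 to 0.98) and it did not pass limma (adjusted p = 0.986); without high replicate 3 the sign turned, to 0.21.

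NR0B2 (ENSSSCG00000003565), the repressor that closes the feedback loop, had 53.27, 39.34, 58.43, 47.25 and 15.82 RPKM in high replicates 1 to 5, against 37.76, 52.05, 39.42, 26.19 and 27.84 RPKM in low replicates 1 to 5. The libraries with the least ABCB11, high replicates 3 and 1 and low replicate 2, had the most NR0B2, and high replicate 5, with the most ABCB11, had the least NR0B2. Its log2 fold change was 0.14 (SE 0.33, 95% interval -0.58 to 0.85), with an adjusted p of 0.987 in limma, and without high replicate 3 the change was -0.0014.

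**Figure D1:**
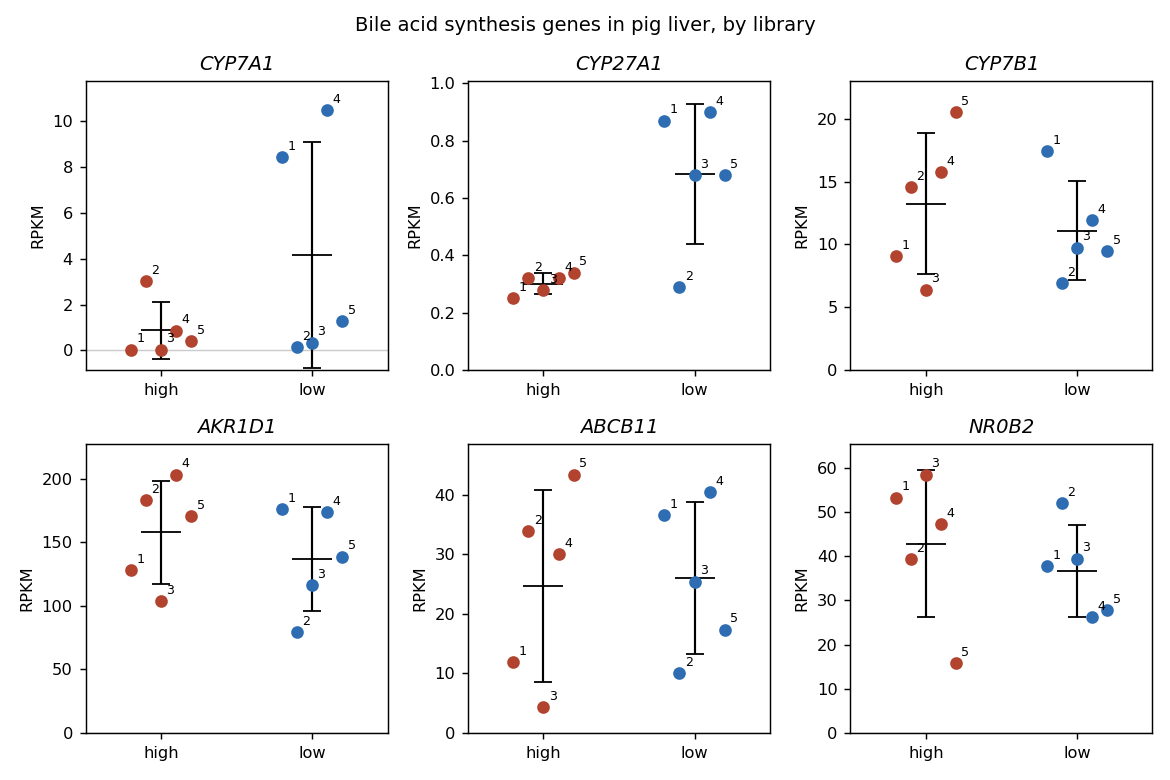
RPKM of each member found (vertical axes) in the high and low libraries. Points are libraries with their replicate number, and the bar and whiskers are the mean and SD of 5 libraries; CYP7A1 reaches 8.44 and 10.49 RPKM in low replicates 1 and 4, and the groups overlap for every member.

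Over the whole table limma gave an adjusted p under 0.05 to 0 of 10931 genes, a share of 0%, and 497 genes, 4.55%, had an unadjusted p under 0.05. Of the 5 tested members, those with a mean of at least 1 RPKM, 0 reached an unadjusted p under 0.05 in limma. CYP27A1 was outside that fit, and it did reach an unadjusted p under 0.05 in the limma fit with no filter. Groups that did not overlap were found in 0.805% of tested genes and in 0 of the 6 members. Of the 5 tested members 3 had the higher mean log2 value in high, as did 48.8% of tested genes, and 2 in low, as did 51.2%, with a median log2 fold change of 0.14, beside a median of -0.0049 over all tested genes. The 2 in low include CYP7A1, which was tested only because of its values in low. The intervals of the 5 tested members, turned into folds, ran from 0.177 for the lower bound of CYP7A1 to 1.97 for the upper bound of ABCB11.

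The rest of the route was read from lists of enzymes, transporters and regulators. Of 14 further enzymes listed, 7 were in the table and 6 were tested, and 0 passed in either direction (3 had the higher mean in high and 3 in low). SLC27A2, which activates side chains as coenzyme A esters, had 117 ± 33.1 RPKM in high and 92.1 ± 21.0 RPKM in low (SD, n = 5 each), and CH25H, an oxysterol-making hydroxylase, had 1.18 ± 0.510 and 1.51 ± 0.324 RPKM in the same order of groups. HSD17B4, a peroxisomal enzyme of side chain shortening, had 70.8 ± 19.3 RPKM in high and 59.9 ± 7.95 RPKM in low. CYP46A1, known for cholesterol turnover in brain, had at most 0.07 RPKM. CYP4A21, the pig enzyme that makes hyocholic acid, was not matched and is not analysed here.

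Of 15 transporters listed, 9 were in the table and 7 were tested, and 0 passed in either direction (4 higher in high, 3 in low). SLC10A1, which takes bile acids up from blood, had 68.06, 210.89, 52.07, 184.24 and 251.22 RPKM in high replicates 1 to 5, against 160.95, 114.21, 159.69, 227.33 and 202.66 RPKM in low replicates 1 to 5. As for ABCB11, its 3 lowest values were those of high replicates 3 and 1 and low replicate 2. ATP8B1, a lipid flippase of the canalicular membrane, had 9.24 ± 0.901 RPKM in high and 8.05 ± 1.55 RPKM in low, and the sterol transporter ABCG8 had 20.3 ± 5.92 RPKM in high and 18.5 ± 4.82 RPKM in low. SLC10A2, the transporter of ileum and bile duct, had at most 0.25 RPKM.

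Of 15 regulators listed, 13 were in the table and 11 were tested, and 0 passed in either direction (4 higher in high, 7 in low). The bile acid receptor NR1H4 varied little, with 40.1 ± 7.16 RPKM in high and 44.6 ± 5.62 RPKM in low (SD, n = 5 each). NR5A2 (LRH-1), which in human and rodent liver binds the CYP7A1 promoter and is silenced by NR0B2, had 29.07, 15.47, 34.43, 15.48 and 18.97 RPKM in high replicates 1 to 5, against 14.95, 31.18, 21.58, 12.10 and 21.50 RPKM in low replicates 1 to 5. Its 3 highest values were in high replicates 3 and 1 and low replicate 2, where CYP7A1 was lowest, and its lowest was in low replicate 4, where CYP7A1 was highest. HNF4A, another activator of CYP7A1, had 103 ± 15.1 RPKM in high and 93.5 ± 17.2 RPKM in low. The hormone receptor pair FGFR4 and KLB had 13.3 ± 5.62 and 1.54 ± 0.408 RPKM in high and 13.6 ± 2.19 and 1.61 ± 0.340 RPKM in low. FGF19 itself and the membrane receptor GPBAR1 were listed at 0 in every library. NR1I3 (CAR), a receptor that responds to drugs and bile acids, had 22.4 ± 12.4 RPKM in high and 30.2 ± 11.5 RPKM in low. PPARGC1A, a coactivator of fasting genes, had 4.84 ± 1.06 RPKM in high and 3.97 ± 1.26 RPKM in low.

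**Figure D2:**
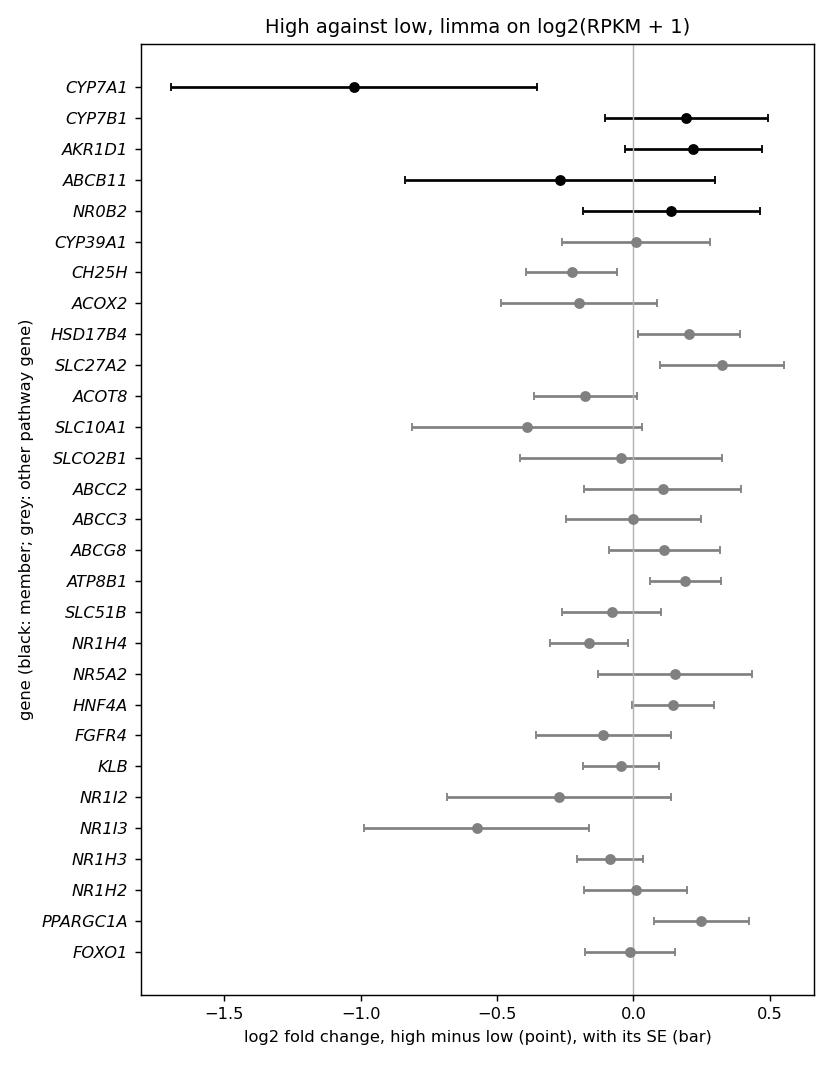
Log2 fold change of high over low (points) with its SE (bars) for the 5 tested members and 24 other tested genes of the route, from limma on log2(RPKM + 1). CYP7A1 lies farthest from 0, at -1.02 with an SE of 0.67, but it was tested only because of its values in low. No gene shown passed the test.

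Each of the 5 tested members varied from liver to liver more than the median gene. The SD of log2(RPKM + 1) over the 10 libraries was 1.29 for CYP7A1, and 59 of the 10931 tested genes varied more. CYP7A1 had a median of 0.63 RPKM, and the high values in low that let it be tested also set its SD. It was 1.005 for ABCB11, with 152 genes above it, 0.56 for NR0B2, 0.52 for CYP7B1 and 0.43 for AKR1D1, beside a median of 0.26 over all tested genes. The SD of CYP27A1 was 0.24 on this scale, which compresses values under 1 RPKM, and 0.60 with a pseudocount of 0.1. With that pseudocount the SD of CYP7A1 was 2.29. These values are a description and were not tested.

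Some pairs of members varied together from liver to liver. CYP7B1 and ABCB11 had a Pearson r of 0.88 (permutation p = 0.00028, adjusted p = 0.0042 over 15 pairs) and a Spearman rho of 0.92 (permutation p = 0.00056, adjusted p = 0.0084). CYP7B1 and AKR1D1 had r = 0.87 (permutation p = 0.0012, adjusted p = 0.00900) and rho = 0.79 (permutation p = 0.00883, adjusted p = 0.0265). Without the 2 libraries farthest from the median of CYP7B1, high replicates 3 and 5, r was 0.85 for the first pair and 0.91 for the second. Both kept an adjusted p under 0.05 by Pearson r in an exact permutation test with each library left out in turn, with r between 0.87 and 0.92 for ABCB11 and between 0.85 and 0.91 for AKR1D1. AKR1D1 and ABCB11 had r = 0.79 (permutation p = 0.0065, adjusted p = 0.0325) and rho = 0.71 (permutation p = 0.0279, adjusted p = 0.0419), and without high replicate 3 and low replicate 2, over 8 libraries, r was 0.68 (exact permutation p = 0.0639) and rho was 0.45 (exact permutation p = 0.267). With only high replicate 3 left out r was 0.82, and with only low replicate 2 left out it was 0.81.

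NR0B2 had a negative r and rho in all 5 of its pairs, of which 4 had an adjusted p under 0.05 by Spearman rho and 0 by Pearson r. With AKR1D1, which passed by neither measure, it had r = -0.47 (permutation p = 0.174, adjusted p = 0.238) and rho = -0.47 (permutation p = 0.180, adjusted p = 0.192). With ABCB11 it had rho = -0.85 (permutation p = 0.00287, adjusted p = 0.0215) and r = -0.68 (permutation p = 0.0294, adjusted p = 0.0883). With CYP7A1 it had rho = -0.75 (permutation p = 0.0151, adjusted p = 0.0351) but r = -0.33 (permutation p = 0.353, adjusted p = 0.407), and high replicate 5 stood off the trend with the least NR0B2 and little CYP7A1. With CYP27A1 it had rho = -0.80 (permutation p = 0.00687, adjusted p = 0.0258) and r = -0.39 (permutation p = 0.264, adjusted p = 0.330). Without high replicate 5 the Pearson r was -0.73 for CYP7A1 and -0.83 for CYP27A1. Without low replicate 4 it was -0.18 for CYP7A1 and -0.28 for CYP27A1. These are the ends of the range with 1 library left out. Without low replicates 1 and 4, the libraries with the most CYP7A1, the rho of CYP7A1 and NR0B2 was -0.78 (exact permutation p = 0.0301) and r was -0.27.

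CYP7A1 and CYP27A1 had r = 0.75 (permutation p = 0.0127, adjusted p = 0.0477) and rho = 0.83 (permutation p = 0.00491, adjusted p = 0.0245). The linear relation rests on low replicates 1 and 4, without which r was 0.23 (exact permutation p = 0.629), while rho was 0.65 (exact permutation p = 0.0880). CYP7A1 and ABCB11 had rho = 0.75 (permutation p = 0.0164, adjusted p = 0.0351) and r = 0.63 (permutation p = 0.0469, adjusted p = 0.106).

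In all, 11 of the 15 pairs had an adjusted p under 0.05 by Spearman rho and 4 by Pearson r. The share of pairs of other tested genes that would pass was not computed. These counts therefore cannot be read as particular to the members. The rank relations depended on the libraries left in. By Spearman rho the count was 1 without high replicate 1, 1 without high replicate 3, 1 without low replicate 2 and 4 without low replicate 3. By Pearson r it was 2 without each of high replicate 1, low replicate 1, low replicate 4 and low replicate 5. Without high replicates 1 and 3 and low replicate 2 together it was 0 of 15 by either measure (exact permutation tests over 7 libraries), and r was then 0.76 for CYP7B1 and ABCB11 and 0.10 for CYP7A1 and NR0B2. Without high replicates 1 and 5 it was 6 by Spearman rho and 2 by Pearson r. With each value set relative to the mean of its group, 14 pairs passed by Spearman rho and 10 by Pearson r (exact permutation within groups). With libraries rescaled by their median ratio, the counts were 5 and 2.

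**Figure D3:**
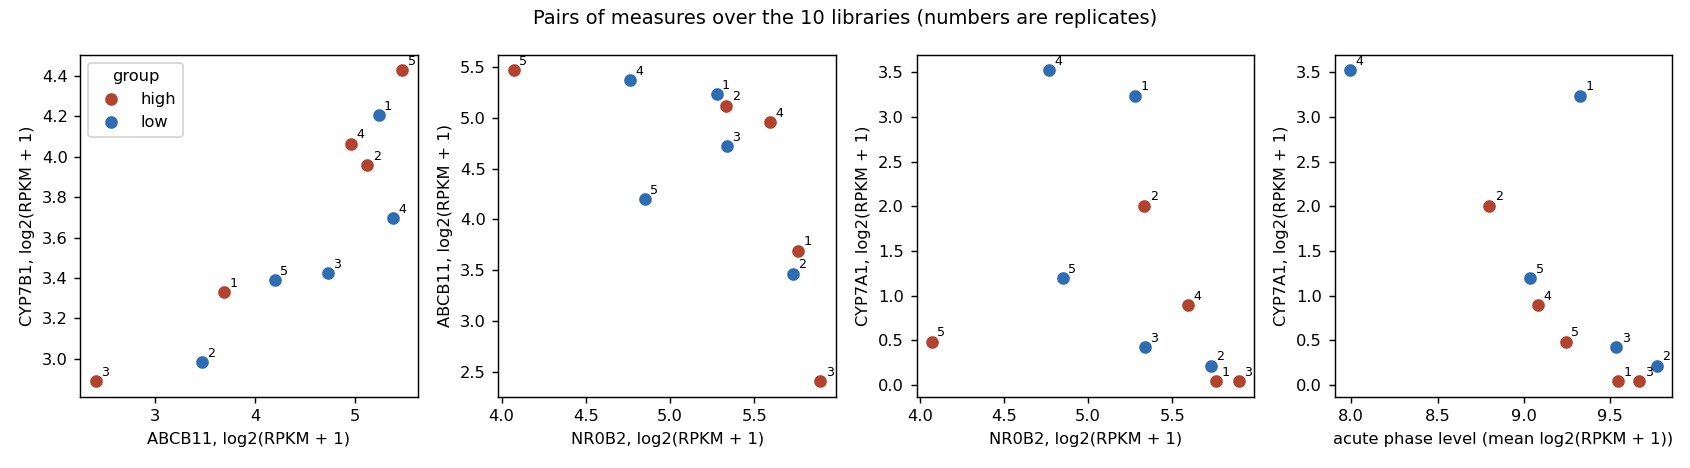
Pairs of measures on the log2(RPKM + 1) scale, 1 point per library with its replicate number, for ABCB11 and CYP7B1, NR0B2 and ABCB11, NR0B2 and CYP7A1, and the acute phase level and CYP7A1. CYP7B1 climbs with ABCB11 (r = 0.88), and high replicate 5 stands alone with the least NR0B2 (15.82 RPKM) and little CYP7A1 (0.40 RPKM).

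CYP7A1 was lowest where acute phase transcripts were highest. With the acute phase level CYP7A1 had r = -0.76 (permutation p = 0.0107, adjusted p = 0.0429 over 12 relations) and rho = -0.84 (permutation p = 0.00395, adjusted p = 0.0474). Without high replicate 2 and low replicate 4, the libraries farthest from the median level, r was -0.44 (exact permutation p = 0.295) and rho was -0.78 (exact permutation p = 0.0301), so the linear relation rests on those libraries. Low replicate 1 stood off the trend with 8.44 RPKM of CYP7A1 at a level of 9.33, and without it r was -0.97. Without low replicate 4 r was -0.55. AKR1D1 had r = -0.66 with the acute phase level (permutation p = 0.0340, adjusted p = 0.0817) and rho = -0.77 (permutation p = 0.0127, adjusted p = 0.0526), and ABCB11 had r = -0.62 (permutation p = 0.0530, adjusted p = 0.0903) and rho = -0.70 (permutation p = 0.0307, adjusted p = 0.0526). NR0B2 alone had a positive relation, r = 0.50 (permutation p = 0.144, adjusted p = 0.173) and rho = 0.72 (permutation p = 0.0233, adjusted p = 0.0526). With libraries rescaled by their median ratio, rho was -0.93 for AKR1D1 (permutation test, adjusted p = 0.0044) and -0.89 for ABCB11 (adjusted p = 0.0069). It was then -0.78 for CYP7B1 (adjusted p = 0.0258) and 0.58 for NR0B2 (adjusted p = 0.0972). By Pearson r these 4 did not pass with that scaling.

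The hepatocyte level, a mean over 8 markers that include the plasma carriers TTR, TF and AHSG, went with AKR1D1 (r = 0.86, permutation p = 0.00199, adjusted p = 0.0239; rho = 0.71, permutation p = 0.0270, adjusted p = 0.0526). It also went with ABCB11 by r (0.76, permutation p = 0.0105, adjusted p = 0.0429) but not by rho (0.58, permutation p = 0.0878, adjusted p = 0.111). Without high replicate 3 and low replicate 2 the relation to AKR1D1 had r = 0.65 (exact permutation p = 0.0859) and that to ABCB11 r = 0.32 (exact permutation p = 0.447), so the relation to ABCB11 rests on those libraries. For AKR1D1 r was 0.84 with only high replicate 3 left out and 0.80 with only low replicate 2 left out. In all, 3 of 12 relations to the 2 levels had an adjusted p under 0.05 by Pearson r and 1 by Spearman rho. The share of other tested genes with such relations was not computed. By Pearson r the count was 0 without any 1 of high replicates 1, 2, 3 or 4 or low replicates 2 or 3, and 5 without high replicate 5. It was 0 by either measure without high replicates 1 and 5 and without high replicates 1 and 3 and low replicate 2. By Spearman rho the count was 6 with libraries rescaled by their median ratio, 6 without low replicate 5 and 4 without high replicate 5. It was 3 without low replicate 1, 2 without high replicate 4, and 0 with a pseudocount of 0.1 or with centred values. It was also 0 without any 1 of high replicates 1, 2 or 3 or low replicates 2, 3 or 4. By group, the hepatocyte markers averaged 10.9 ± 0.396 in high and 10.9 ± 0.452 in low (exact permutation p = 0.921), and the acute phase level was 9.27 ± 0.351 in high and 9.13 ± 0.692 in low (exact permutation p = 0.762; SD, n = 5 each). The part of hepatocyte content and of the acute phase in the relations between members was not tested.

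Other genes of the route shared the livers at the low end. High replicates 1 and 3 and low replicate 2 held the 3 lowest values of CYP7A1, CYP27A1, CYP7B1 and ABCB11 and the 3 highest of NR0B2. They also held the 3 lowest of 9 of the 24 other tested genes of the route, 37.5%, beside 7.73% of all tested genes: the enzymes CYP39A1, ACOX2 and ACOT8, the transporters SLC10A1, SLCO2B1 and ABCC2, and the regulators FGFR4, NR1I2 and NR1I3. They held the 3 highest of 2 of the 24, NR5A2 and NR1H2, which is 8.33%, beside 12.2% of all tested genes. This order was described after the values were seen and was not tested.

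**Figure D4:**
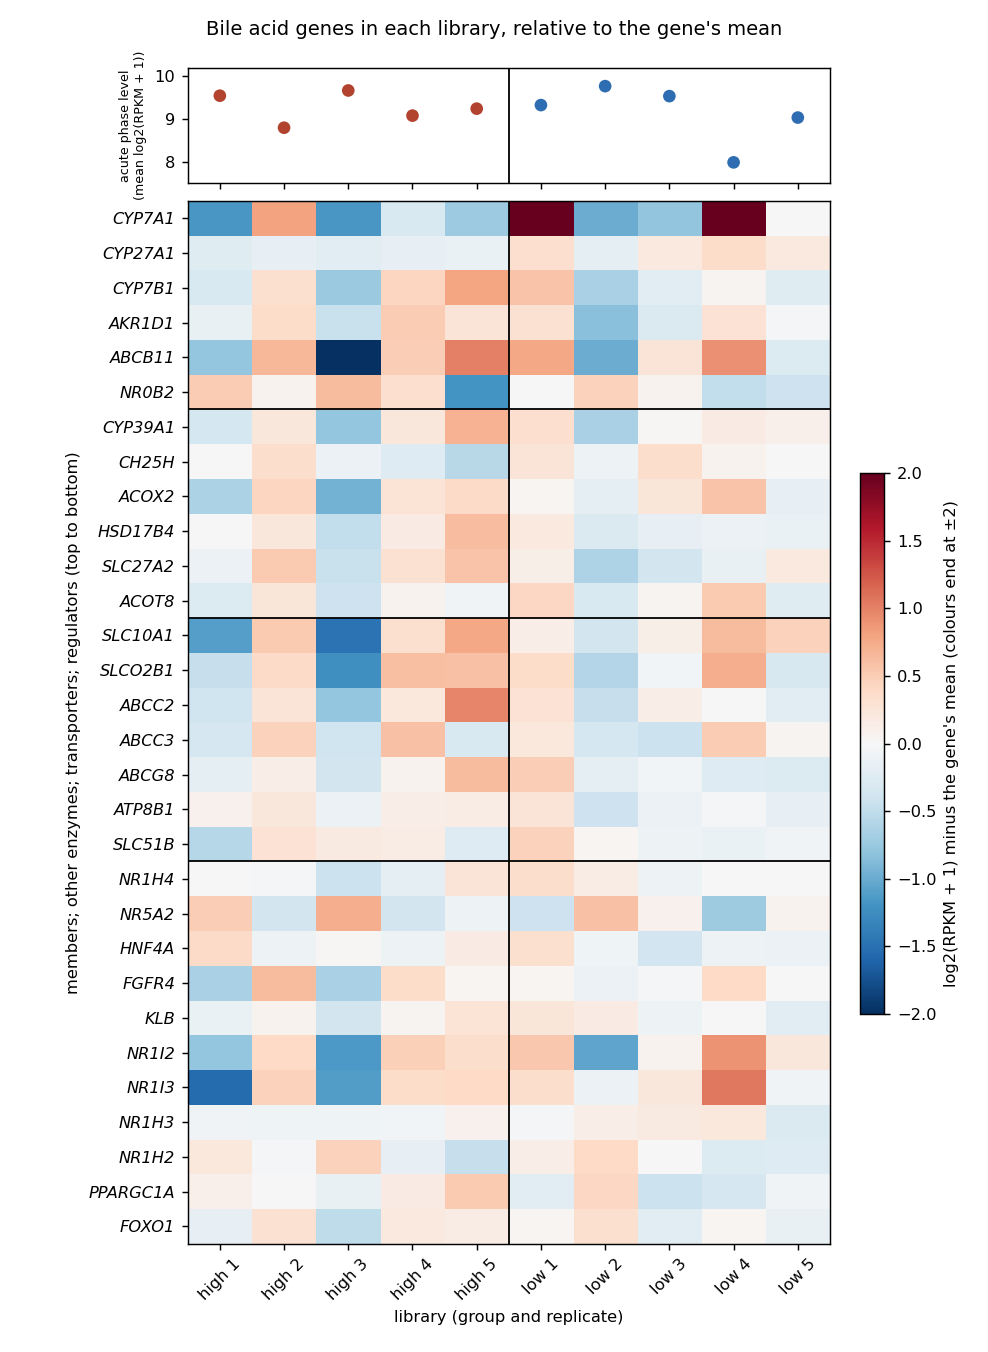
Each gene's log2(RPKM + 1) minus its mean over the 10 libraries (colour, ends at ±2), for the 6 members and 24 other tested genes of the route, with the acute phase level of each library (mean log2(RPKM + 1)) above. The lowest values of CYP7A1, CYP7B1, ABCB11 and SLC10A1 (blue) stand at high replicates 1 and 3 and low replicate 2, where NR0B2 and NR5A2 are highest (red). CYP7A1 is also below its mean in other libraries, such as high replicate 5 and low replicate 3.

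The genes whose pattern was most like that of a member were found by Pearson r over the 10 libraries among 7219 tested genes with a symbol; they were picked as the highest of many, so no test is given. ABCB11 was matched best by XDH, the purine-oxidising enzyme xanthine dehydrogenase, with r = 0.98 and the same order of all 10 libraries. XDH had 13.35, 37.05, 6.33, 36.89 and 62.29 RPKM in high replicates 1 to 5, against 49.82, 10.85, 22.42, 56.50 and 21.66 RPKM in low replicates 1 to 5. Next came SLCO2B1, an organic anion uptake transporter of the same list, with r = 0.97, and TARS3, a threonyl-tRNA synthetase gene, with r = 0.97. CYP7A1 was matched best by TRMT112, a partner of methyltransferases, with r = 0.97, IFT122, a gene of ciliary transport, with r = 0.94, and FAM193B with r = 0.94. NR0B2 was matched best by GORAB, which encodes a Golgi protein, with r = 0.94, and less closely by AOC2, with r = 0.88.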

How the data were processed

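RNA sequencing of liver from 10 samples (5 high, 5 low) was analysed from the deposited table, in which the authors gave RPKM per gene and library, per the file headers, with 75 bp paired reads per the labels' protocols. Per the submitters' processing notes the genome build was Sscrofa10.2. Aligner, counter and annotation are not given in the sources used. The kit does not mark strand, so overlapping antisense genes cannot be told apart. The deposited table also holds the authors' p-value and the authors' fold, a signed score, per gene. In it 624 large values carry a dot as digit-group mark and were read accordingly.

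Symbols matched 11779 of 25009 identifiers. No coordinates or sequences are given, since the annotation used here is of another build. Values were analysed as log2(RPKM + 1), which understates changes of low genes. The 10931 genes whose mean over all libraries reached 1 RPKM were fitted with limma 3.58.1 in R 4.3.3 (trend, two-sided, high minus low, Benjamini-Hochberg, threshold 0.05), checked on simulated data. Single values were tested by two-sided exact permutation (smallest p 0.00794), and correlations by 100000 permutations, or exactly for under 10 libraries. RPKM without gene lengths gave no whole reads, so no counting interval is given. Replicate numbers only name samples.

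Members and lists were chosen with earlier results of these data known. Named were all members, up to 3 genes per list by smallest p plus fixed regulators and SLC10A1, and 3 genes most like each of CYP7A1, ABCB11 and NR0B2, of which 1 is not reported here. Other genes named (CYP46A1, SLC10A2, FGF19, GPBAR1 and the genes sharing the order of livers) were chosen after their values were seen. Alternatives were pseudocount, filter, scaling, robust fitting, centring on groups and leaving out libraries.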

Additional observations from a re-analysis of the deposited data

Results flagged for a closer look

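Of 56 groups of 5 values looked at, from 28 genes, 2 held a library far from the rest of its group, where chance alone gives about 1 in 20 groups. The sterol transporter gene ABCG8 had 26.93 RPKM in low replicate 1, and the next low library had 18.04 RPKM. GORAB, 1 of the genes most like NR0B2, had 5.72 RPKM in low replicate 2, and the next low library had 4.52 RPKM.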

How the results depend on the processing

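No paired analysis was possible because the replicate numbers only name the samples. The number of genes past the threshold was 0 under every alternative run; genes with an unadjusted p under 0.05 in limma numbered 912 with no filter, 199 without high replicates 1 and 5, and 280 to 819 with 1 library left out. The sign of some differences turned without high replicates 1 and 3 and low replicate 2, an alternative chosen after seeing the data: ABCB11 0.30, NR0B2 -0.058, SLC10A1 0.20, NR1I3 0.019, NR5A2 -0.039, FGFR4 0.25 and KLB 0.14 (log2, high minus low). FGFR4 was 0.060 without high replicates 1 and 5. With 1 library left out the range was -0.55 to 0.21 for ABCB11, -0.0014 to 0.45 for NR0B2, -0.63 to -0.067 for SLC10A1, -0.76 to -0.26 for NR1I3, -0.029 to 0.25 for ABCG8, -0.012 to 0.32 for NR5A2, -0.28 to 0.040 for FGFR4 and -0.12 to 0.041 for KLB. The causes were not tested. CYP27A1 no longer passed its exact permutation test without high replicates 1 and 5 (-0.35), where 3 libraries faced 5. The SD of CYP7A1 was 2.29 and that of CYP27A1 0.60 with a pseudocount of 0.1.

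Member pairs with an adjusted p under 0.05 by Pearson r numbered 2 with median-ratio scaling, 10 with values centred on their group mean, 2 without high replicates 1 and 5, 0 without high replicates 1 and 3 and low replicate 2, and 2 to 5 with 1 library left out. Relations to liver state levels numbered 1 with centred values, 0 without high replicates 1 and 5, 0 without the 3 libraries, and 0 to 5 with 1 library left out. Fewer libraries also make a relation of the same size harder to pass. Without the 3 libraries r changed sign for CYP7A1 and NR0B2 (0.10), CYP27A1 with CYP7B1 (-0.45), AKR1D1 (-0.39), ABCB11 (-0.11) and NR0B2 (0.0051), AKR1D1 and NR0B2 (0.074), the acute phase level and CYP7B1 (0.14), and the hepatocyte level with CYP27A1 (-0.086) and ABCB11 (-0.082). With 1 library left out, the r of CYP7A1 and NR0B2 ran from -0.73 to -0.18. For CYP27A1 it ran from 0.040 to 0.40 with CYP7B1 and from 0.13 to 0.43 with AKR1D1. With ABCB11 and NR0B2 the r of CYP27A1 ran from 0.40 to 0.61 and from -0.83 to -0.28. For AKR1D1 and NR0B2 the range was -0.63 to -0.38, and for the acute phase level and CYP7B1 -0.65 to -0.29. The hepatocyte level had 0.32 to 0.54 with CYP27A1 and 0.62 to 0.88 with ABCB11. The hepatocyte level without FGB, which the acute phase list also holds, gave 3 relations by Pearson r and 6 by Spearman rho. The absolute depth is unknown, and values near 0 RPKM, such as the 0.03 of CYP7A1, are imprecise.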

Other observations

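Lists of markers for non-hepatocyte cells were compared by their mean log2(RPKM + 1) per library. T and NK cell markers averaged 1.79 ± 0.269 in the high livers, against 2.21 ± 0.405 in the low livers (SD of 5 livers per group, exact permutation p = 0.0873), with summed RPKM of 18.8 to 34.5 in high and 25.5 to 54.8 in low. The Kupffer cell and macrophage level was 4.87 ± 0.240 in high and 5.14 ± 0.153 in low (exact permutation p = 0.0635), with summed RPKM of 205 to 263 in high and 210 to 378 in low. The cholangiocyte level was 1.58 ± 0.245 in high and 1.63 ± 0.341 in low (exact permutation p = 0.770). The exact permutation p was 0.611 for endothelial cells, 0.976 for stellate cells and fibroblasts, 0.397 for gut and exocrine pancreas and 0.381 for the nervous system list. The part of these cells in the values of the bile acid genes was not tested.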
